A study of Mus musculus with 6 samples.

Results

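The interferon-stimulated genes described here are 40 genes that cells switch on when interferon reaches them. They were taken by symbol from a fixed list, and each of the 40 was found among the 54532 gene rows of the expression table. The table comes from mouse CD4 T cells of spleen and lymph nodes, on the C57BL/6 background, in 6 RNA sequencing libraries. The 3 KO libraries (KO 1, KO 4 and KO 5) carry the genotype iCD4-PRMT5 delta/delta, and the 3 WT libraries (WT 1, WT 2 and WT 4) carry iCD4-PRMT5fl/fl, so that the WT animals hold floxed alleles. The labels do not spell out iCD4, and they give neither age nor a driver of deletion. In both groups alike, the titles and the columns of the table call the cells rest, but the treatment entry names CD3 and CD28 for 48 h. These labels conflict, so which state was sequenced is not certain. A code in the descriptions sorts the libraries into series 24 (KO 4, KO 5 and WT 4) and series 22 (KO 1, WT 1 and WT 2).

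Interferons are secreted proteins that signal through cell surface receptors and the JAK kinases. Type I interferons, such as interferon beta, lead to a complex containing IRF9 that binds a DNA element called ISRE, whereas interferon gamma, the type II interferon that helper T cells make, acts mainly through an element called GAS. The genes induced encode viral RNA sensors, proteins that block viral replication, GTPases that attack intracellular pathogens and transcription factors that amplify the response, and many of them are expressed at a low level in T cells of uninfected animals. PRMT5 is an arginine methyltransferase, and the comparison asks how its loss relates to transcript levels in these cells.

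ISRE letters are a feature shared by many of the 40 genes that was not used to choose the 40. The 4 promoters shown were picked because they hold such letters, going down a fixed order of names. Irf7 and Ifi44 came before Gbp2 in that order and were passed over, as their promoters held none. RefSeq promoter windows (GRCm38.p6, 250 bases before to 50 bases after a gene start) were found for 29 of the 40 genes. Both strands were searched for ISRE as GAAA, any 2 bases and GAAA again, and for GAS as TTCNNNGAA. An ISRE match was present in 17 of the 29 genes (58.6%), against 3.99% of the 27025 genes with a window, and in 18 of their 37 windows (48.6%), against 3.44% of all 32851 windows. A GAS match was present in 10 of the 29 genes (34.5%), against 9.55% of all genes with a window, and in 27% of the windows of the 40 genes, against 8.3% of all windows. ISRE letters were found in 5 of 5 GTPase genes with a window, in 7 of 12 antiviral effectors, in 2 of 2 sensors and in 0 of 3 IRF genes. Capitals mark the ISRE matches in the windows of Isg15 (chr4:156200769-156201068, minus strand), Ifit1 (chr19:34640639-34640938, plus strand), Rsad2 (chr12:26456403-26456702, minus strand) and Gbp2 (chr3:142620413-142620712, plus strand).
Isg15: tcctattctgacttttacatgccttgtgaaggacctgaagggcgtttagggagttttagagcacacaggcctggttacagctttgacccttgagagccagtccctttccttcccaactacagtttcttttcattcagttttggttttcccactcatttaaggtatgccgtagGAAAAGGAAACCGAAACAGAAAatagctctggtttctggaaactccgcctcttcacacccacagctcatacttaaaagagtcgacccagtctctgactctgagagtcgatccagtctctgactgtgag
Ifit1: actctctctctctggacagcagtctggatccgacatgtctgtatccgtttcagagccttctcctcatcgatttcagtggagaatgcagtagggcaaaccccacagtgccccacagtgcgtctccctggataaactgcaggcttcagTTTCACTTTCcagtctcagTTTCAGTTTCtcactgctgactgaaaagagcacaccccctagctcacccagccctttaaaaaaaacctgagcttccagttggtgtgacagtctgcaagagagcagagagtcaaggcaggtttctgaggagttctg
Rsad2: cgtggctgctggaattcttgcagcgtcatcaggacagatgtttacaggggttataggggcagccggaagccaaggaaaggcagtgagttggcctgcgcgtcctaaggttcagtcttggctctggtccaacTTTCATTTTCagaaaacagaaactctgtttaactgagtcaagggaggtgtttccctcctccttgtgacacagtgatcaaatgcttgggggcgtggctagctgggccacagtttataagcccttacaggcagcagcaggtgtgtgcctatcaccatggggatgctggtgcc
Gbp2: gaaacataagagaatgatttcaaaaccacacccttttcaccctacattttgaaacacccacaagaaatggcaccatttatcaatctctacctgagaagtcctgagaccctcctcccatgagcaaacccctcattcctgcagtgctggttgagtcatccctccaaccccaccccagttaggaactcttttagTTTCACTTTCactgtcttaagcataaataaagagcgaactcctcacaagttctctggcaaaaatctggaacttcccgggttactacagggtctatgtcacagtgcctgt
In the Isg15 window 3 matches overlapped each other, the first starting 78 bases and the last 66 bases before the gene start. The 2 matches of Ifit1 started 104 and 85 bases before it, that of Rsad2 120 bases and that of Gbp2 59 bases before it. None of the 4 windows holds a GAS match. A match of letters is a description of the window and does not show that a factor binds there. The lack of a match to this pattern in this window does not show that a gene has no ISRE.

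Values are robust FPM as deposited, in which a robust factor sets the scale of each library's fragment totals per gene, and n is 3 libraries per group. Prmt5 itself measured 24.4, 23.8 and 21.5 in KO 1, KO 4 and KO 5, against 34.9, 41.0 and 43.9 in WT 1, WT 2 and WT 4, without overlap (log2 change -0.78, SE 0.137, limma adjusted p = 1). CD4 T cell markers were present in every library, with 8 markers summing to between 2041.2 and 2345.0 in KO and between 1913.6 and 2382.3 in WT. WT 1 stood apart from the other libraries before any test. It had 0.301 FPM per kb of exon over 1428 olfactory and vomeronasal receptor genes, a set taken as a measure of background. This level was 0.0254 to 0.0809 in the KO libraries and 0.0144 to 0.0847 in WT 2 and WT 4. WT 1 also held the lowest value for 44.3% of the 14944 genes tested.

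Each of the 40 genes passed the filter of a mean of at least 1 FPM over the 6 libraries. Their means ran from 6.85 FPM for Isg15 to 426.7 FPM for Samhd1. Per kb of exon, the level was lowest for Ifi44 (1.38 FPM per kb) and highest for Ifi27l2a (315 FPM per kb), followed by Igtp (79.0) and Irf1 (77.2). In WT 1 the lowest of the 40 was Ifi44 at 1.27 FPM per kb.

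The values of the 40 genes differed most between 2 libraries of the same genotype. WT 2 held the highest value for 35 of the 40 genes (87.5%), whereas it did so for 5.4% of all genes tested. WT 1 held the lowest value for 31 of the 40 (77.5%), beside 44.3% of all genes tested and 58.6% of those with a mean of at least 5. Measured as the deviation of log2(FPM + 0.5) from the gene's mean over the 6 libraries, the median over the 40 genes was -0.07 in KO 1, -0.15 in KO 4 and 0.12 in KO 5, against -0.33 in WT 1, 0.37 in WT 2 and 0.06 in WT 4. Over all genes tested the same medians lay between -0.01 and 0.04 in KO and between -0.12 and 0.09 in WT. WT 2 lay above WT 1 for 40 of 40 genes, with a median log2 difference of 0.66. It did so for 60.7% of all genes (median 0.09) and for 75.2% of those with a mean of at least 5 (median 0.15). This split lies within series 22 and within the WT group.

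**Figure D1:**
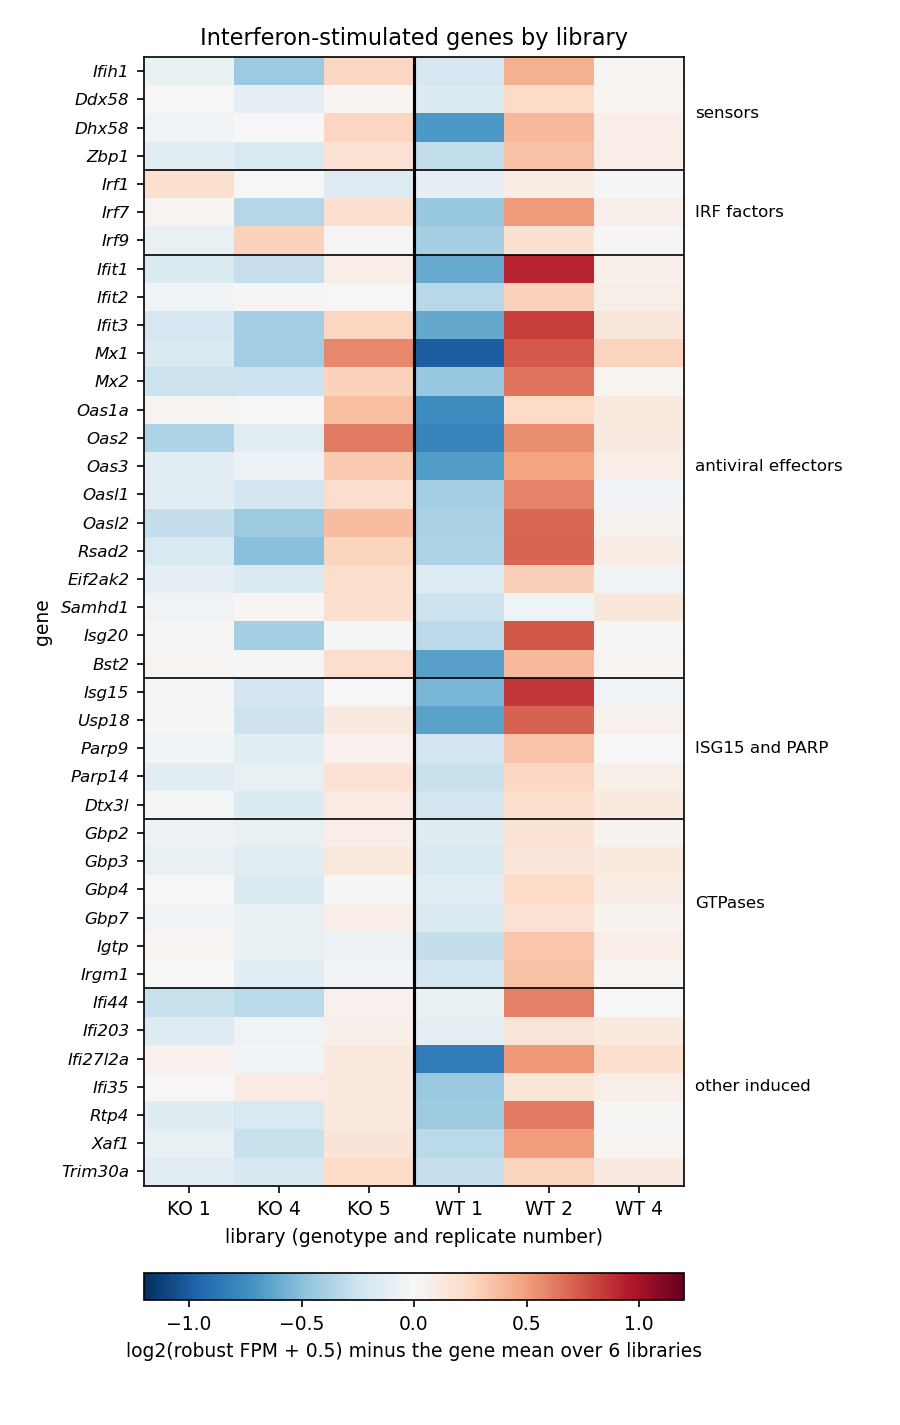
Each row is one of the 40 interferon-stimulated genes and each column a library, KO on the left and WT on the right. Colour gives log2(robust FPM + 0.5) minus the gene's mean over the 6 libraries. WT 2 is the highest library in 35 rows and WT 1 the lowest in 31.

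The KO libraries sat between these WT libraries. For 27 of the 40 genes (67.5%) the 3 KO values all lay inside the WT range, beside 35.6% of all genes tested. The SD of the log2 values was larger in WT than in KO for 38 of the 40 (95%), where this held for 67.8% of all genes. Its median was 0.18 in KO and 0.35 in WT for the 40 genes, and 0.15 in KO and 0.22 in WT for all genes. Among the KO libraries KO 5 was above KO 4 for 37 of 40 genes, with a median log2 difference of 0.29, beside 55% of all genes.

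With the library series as a term, limma called 0 of the 40 genes as different between KO and WT, and 0% of all 14944 genes tested were called. At an unadjusted p under 0.05 the count was 0 of the 40 and 37 of all genes. The limma adjusted p was 1 for each of the 40, and the smallest unadjusted p was 0.183, that of Ifi44. The log2 change was negative for 31 of the 40 (77.5%) and positive for 9. It was negative for 45.6% of all genes tested and for 35.6% of those with a mean of at least 5. Its median was -0.08 for the 40 genes and 0.01 for all genes, with a range of -0.33 to 0.17 over the 40. KO and WT values overlapped for each of the 40, and 2.88% of all genes tested had no overlap. The 95% interval excluded a 2-fold change for 36 of the 40 genes (90%). It did so for 85.1% of all genes and for 97.8% of those with a mean of at least 5. The other 4 of the 40 were Ifit1, Ifit3, Mx1 and Rsad2. A 1.5-fold change was excluded for 19 of the 40 (47.5%). The shares were 60.1% of all genes and 83.4% of those with a mean of at least 5.

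**Figure D2:**
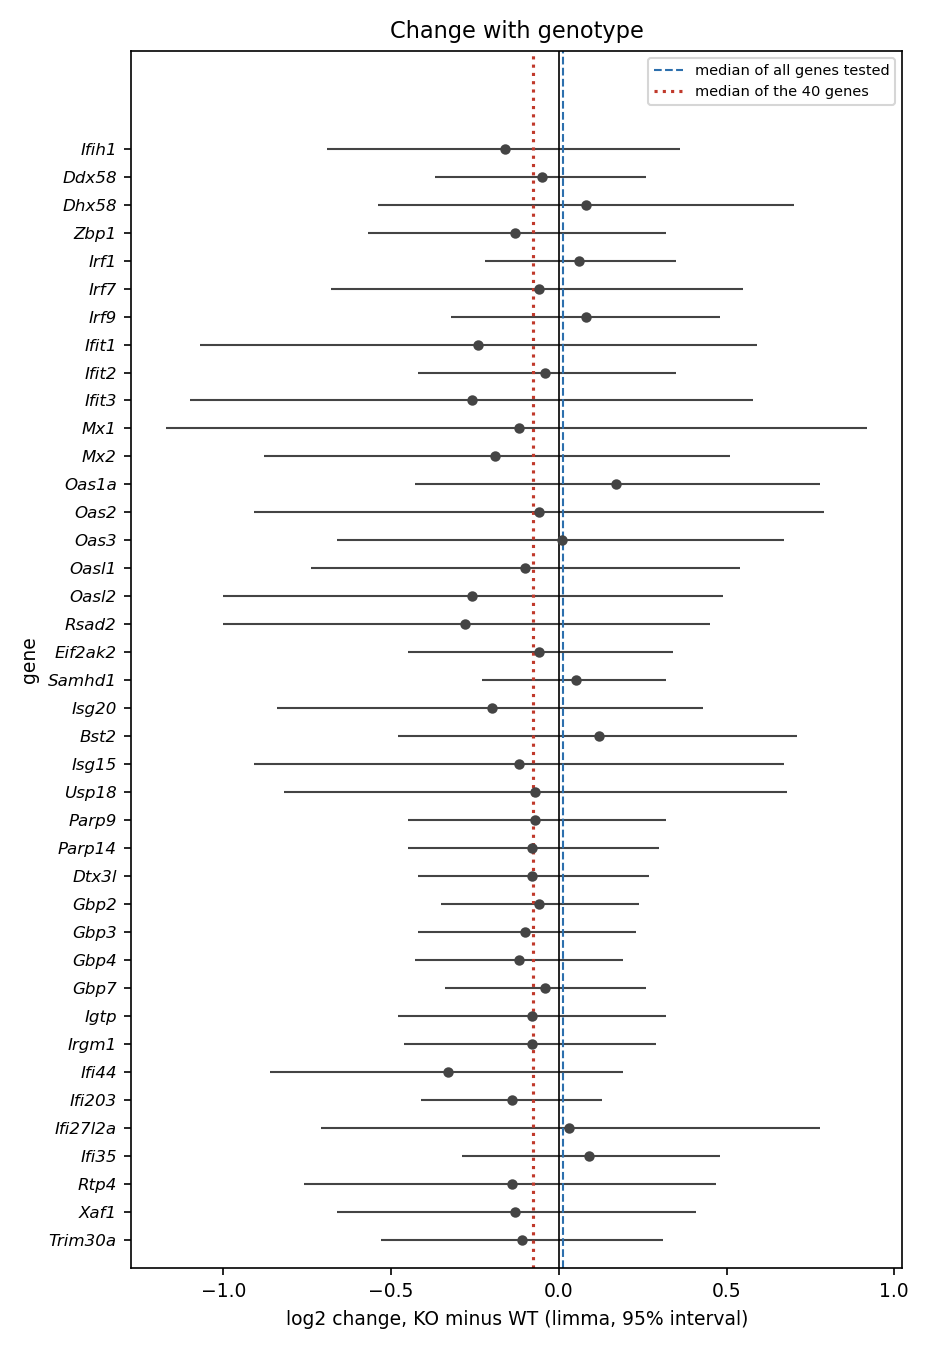
Points are log2 changes (KO minus WT) of the 40 genes with their 95% intervals from limma, and the vertical lines are the medians of the 40 genes (-0.08) and of all genes tested (0.01). Every interval crosses 0, and that of Mx1 is the widest.

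The sign of the median rested on which WT libraries were present. Without WT 2 the median over the 40 genes was 0.06, with 33 of 40 positive, and without WT 1 it was -0.22, with 39 of 40 negative. The medians of all genes were 0.02 and -0.01 in these fits, with 54.1% and 44.8% of their changes positive. Without WT 1, limma still called 0 of the 40 (smallest adjusted p = 1), while 5 had an unadjusted p under 0.05 (Usp18, Isg20, Ifi27l2a, Ifit3 and Ifit1). In that fit 25 higher and 42 lower genes of all 14118 tested had such a p. Among the 40 genes, 7 (17.5%) were lower in each KO library than in WT 2 and WT 4, where 4.31% of all genes tested were. These were Ifi203, Gbp4, Irgm1, Igtp, Ifi27l2a, Dtx3l and Ifit2, named after their values were seen. Scaling to the ERCC spike-in RNAs moved the median of all genes to -0.20 and that of the 40 genes to -0.30. With it 40 of 40 changes were negative, and 7.75% of all genes tested had a positive change. Ifi44 and Isg20 (5% of the 40) were then lower in each KO library than in every WT library, where 0.634% of all 15300 genes tested were.

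**Figure D3:**
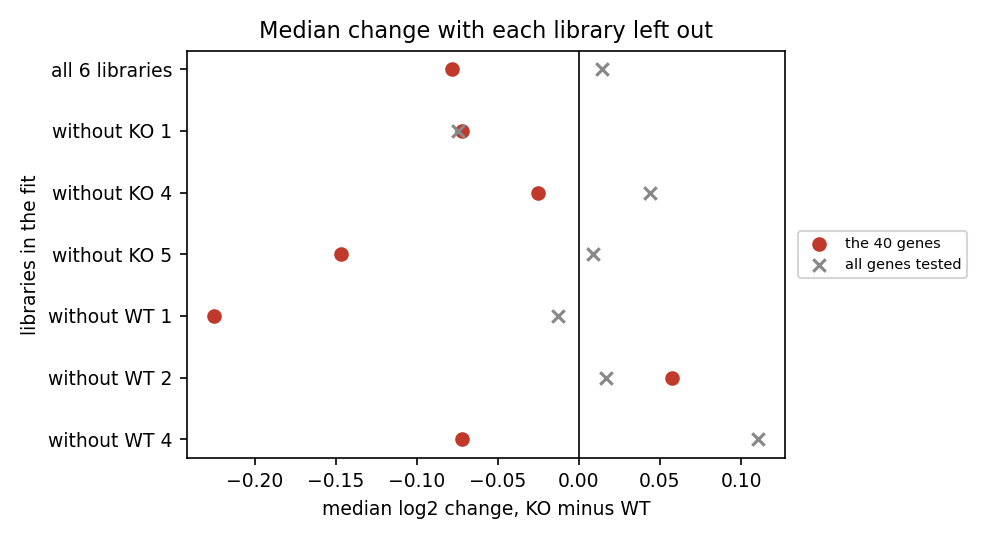
Rows are fits to all 6 libraries or to 5 of them, and the horizontal axis is the median log2 change, KO minus WT. Circles are the 40 genes and crosses all genes tested. The circle moves to -0.22 without WT 1 and to 0.06 without WT 2.

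Within series 24 the median change of the 40 genes was -0.07 (mean of KO 4 and KO 5 against WT 4). Within series 22 it was -0.07 (KO 1 against the mean of WT 1 and WT 2). That value averages 2 WT libraries that lie apart. The median deviation of KO 1, -0.07, lay between those of WT 1 (-0.33) and WT 2 (0.37). Over all genes tested the median changes were -0.08 in series 24 and 0.12 in series 22. The changes had opposite signs in the 2 series for 8 of the 40 genes and for 10594 of the 14944 genes tested. A limma test of the difference between the series (genotype by series interaction) called 0 of the 40 (smallest adjusted p = 0.679), and 0% of all genes tested. At an unadjusted p under 0.05 it gave 0 of the 40 and 369 of all genes.

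Among the sensors, which detect viral nucleic acid, Ifih1 (encoding MDA5) measured 57.0, 44.6 and 71.6 in KO 1, KO 4 and KO 5, against 52.5, 81.4 and 61.9 in WT 1, WT 2 and WT 4. Its log2 change was -0.16 (SE 0.228). Zbp1, a sensor of Z-form nucleic acid, measured 75.8, 73.5 and 94.2 in the KO libraries, against 68.0, 106.5 and 88.4 in the WT libraries, a log2 change of -0.13 (SE 0.192). WT 2 was the highest library for both. Ddx58, which encodes RIG-I, and its relative Dhx58 had log2 changes of -0.05 and 0.08. Ddx58 was the most abundant of the 4 sensors at 27.1 FPM per kb.

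The transcription factors of the response differed in their library pattern. Irf7, which amplifies type I interferon signalling, measured 54.5, 42.0 and 61.1 in KO, against 38.7, 76.1 and 55.6 in WT, a log2 change of -0.06 (SE 0.265). Its KO values all lay between WT 1 and WT 2. Irf9, the DNA-binding part of the complex that recognises ISRE, measured 125.9, 162.2 and 135.2 in KO, against 101.3, 151.4 and 134.6 in WT, a log2 change of 0.08 (SE 0.173). Irf1, a factor induced by interferon gamma, measured 349.5, 304.5 and 274.2 in KO, against 285.7, 326.1 and 302.5 in WT, a log2 change of 0.06 (SE 0.122). The highest value of Irf9 was that of KO 4 and the highest of Irf1 that of KO 1, so that neither peaked in WT 2.

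Antiviral effectors showed the widest spread. The median log2 difference between WT 2 and WT 1 was 1.06 over these 15 genes, against 0.36 over the 6 GTPases. Ifit1, whose protein binds viral RNA that lacks host cap methylation, measured 57.3, 53.1 and 68.4 in KO 1, KO 4 and KO 5, against 42.2, 121.8 and 67.5 in WT 1, WT 2 and WT 4. The mean was 59.6 ± 7.91 in KO and 77.2 ± 40.7 in WT (SD, n = 3 each), and the log2 change was -0.24 (SE 0.359, 95% interval -1.07 to 0.59). WT 2 had 2.89 times the value of WT 1, and the KO values fell between them. Ifit3 measured 37.2, 32.3 and 51.4 in KO, against 27.8, 76.5 and 47.3 in WT, with a log2 change of -0.26 (SE 0.364). Ifit3 has a close relative, Ifit3b, at 9.2 to 22.2 FPM, and how reads were divided between these genes is uncertain.

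Mx1, a dynamin-like GTPase that blocks influenza virus in mice with an intact allele, measured 20.7, 17.4 and 35.2 in KO, against 11.6, 39.5 and 28.3 in WT. C57BL/6 mice carry an allele without several exons, so this transcript does not encode the active protein. Its ratio between WT 2 and WT 1, 3.41, was the largest of the 40 genes, and its log2 change with genotype was -0.12 (SE 0.451). Rsad2, encoding the antiviral enzyme viperin, measured 13.9, 11.0 and 19.1 in KO, against 12.1, 26.0 and 16.9 in WT, a log2 change of -0.28 (SE 0.313). Oas2, an oligoadenylate synthetase that activates RNA decay by RNase L, measured 12.9, 15.2 and 26.2 in KO, against 9.5 in WT 1 and 25.0 in WT 2 with WT 4 between them, a log2 change of -0.06 (SE 0.366). Its relative Oas1a was highest in KO 5 too, at 23.3 FPM, and had a log2 change of 0.17, the most positive of the 40. Oasl2 had a log2 change of -0.26.

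**Figure D4:**
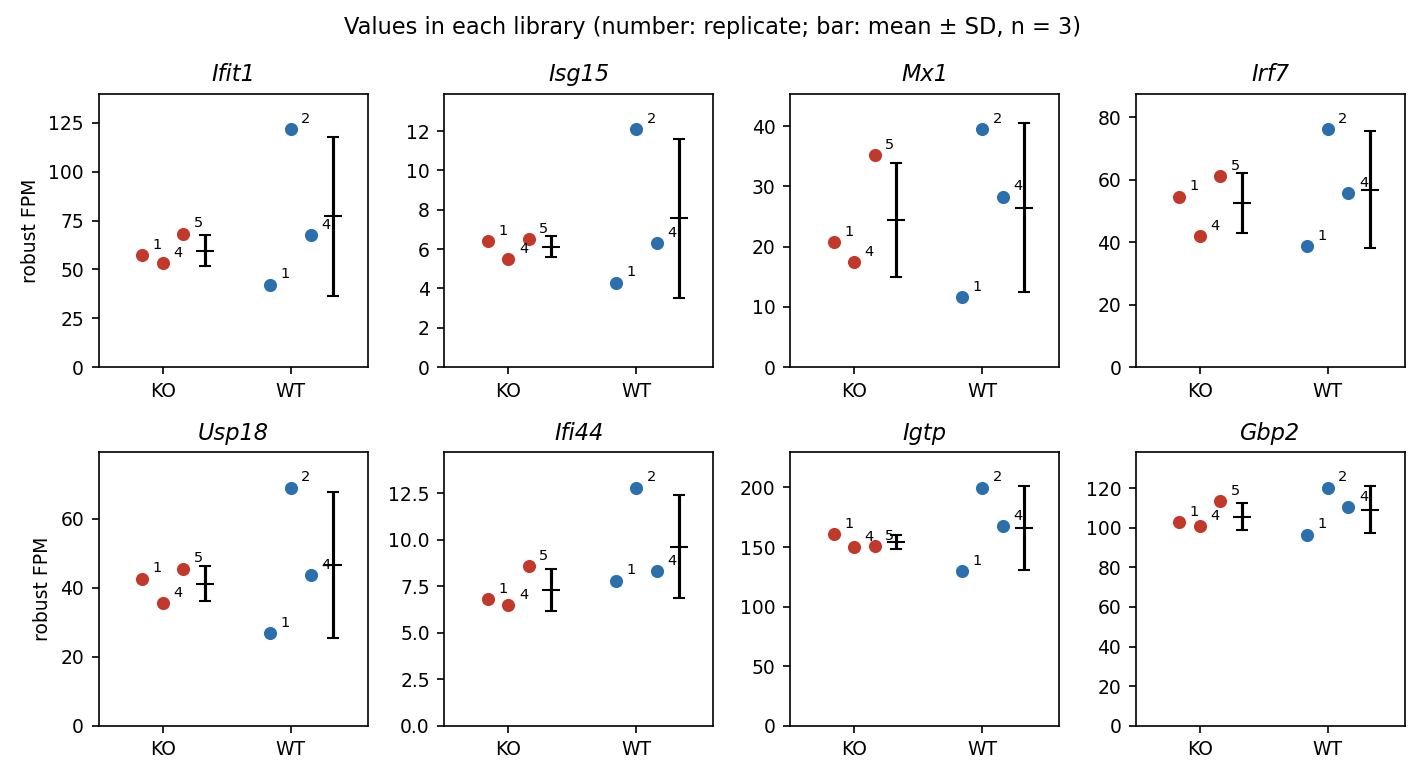
Robust FPM of 8 of the genes in each library, with the replicate number beside each point and the mean and SD of 3 libraries as a bar. For Ifit1, Isg15, Mx1, Irf7, Usp18, Igtp and Gbp2 the WT libraries 1 and 2 lie on either side of all KO libraries. For Ifi44 they do not. Gbp2 has a narrower range.

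Of the remaining effectors, each but Samhd1 peaked in WT 2. Bst2 encodes tetherin, which holds budding virus at the cell surface, and measured 33.4, 32.4 and 37.9 in KO, against 20.6, 42.8 and 33.3 in WT, a log2 change of 0.12 (SE 0.257). Samhd1, which depletes the nucleotides that retroviruses need, measured 412.7, 432.0 and 485.7 in KO, against 354.0, 410.2 and 465.6 in WT, and its log2 change was 0.05 (SE 0.118). Samhd1 was highest in KO 5. Isg20, an exonuclease, measured 11.5, 8.5 and 11.2 in KO, against 9.1, 19.5 and 11.3 in WT, a log2 change of -0.20 (SE 0.276). Log2 changes of Ifit2, Mx2, Oas3, Oasl1 and the kinase gene Eif2ak2 did not pass the limma test.

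Isg15 is a ubiquitin-like protein that is attached to other proteins, and Usp18 removes it and dampens signalling at the interferon receptor. Isg15 measured 6.4, 5.5 and 6.5 in KO, against 4.3, 12.1 and 6.3 in WT, a log2 change of -0.12 (SE 0.342). Usp18 measured 42.6, 35.5 and 45.5 in KO, against 26.9, 69.0 and 43.7 in WT, a log2 change of -0.07 (SE 0.323). Both were highest in WT 2 and lowest in WT 1. Dtx3l, a ubiquitin ligase, and Parp9, its partner, lie head to head and share 458 exon bases on opposite strands. Dtx3l had a log2 change of -0.08 (SE 0.148), and Parp14, a mono-ADP-ribosyltransferase, one of -0.08 (SE 0.162). For all 5 genes of this group the 3 KO values lay inside the WT range.

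The 6 GTPases, which interferon gamma induces strongly and which act on vacuoles that hold pathogens, varied least. Gbp2 measured 102.9, 100.7 and 113.5 in KO 1, KO 4 and KO 5, against 96.6, 120.3 and 110.3 in WT 1, WT 2 and WT 4, with a mean of 105.7 ± 6.84 in KO and 109.1 ± 11.9 in WT (SD, n = 3 each). Its log2 change was -0.06 (95% interval -0.35 to 0.24). Igtp measured 160.8, 150.2 and 150.8 in KO, against 129.7, 199.8 and 167.7 in WT, a log2 change of -0.08 (SE 0.171). Igtp shares 162 exon bases with Irgm2 on the same strand. Gbp4 and Gbp3 had log2 changes of -0.12 and -0.10. All 6 changes were negative, between -0.12 and -0.04, none passed the limma test, and the 95% interval excluded a 1.5-fold change for each of the 6.

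Of the other induced genes, Ifi44 measured 6.8, 6.5 and 8.6 in KO, against 7.8, 12.8 and 8.3 in WT. It had the most negative change of the 40, a log2 value of -0.33 (SE 0.228, 95% interval -0.86 to 0.19), at -0.14 within series 24 and -0.53 within series 22. The groups overlapped through KO 5, WT 1 and WT 4. Ifi203, a member of the PYHIN family of DNA-binding proteins, measured 292.4, 315.9 and 339.0 in KO, against 300.6, 359.9 and 353.2 in WT, a log2 change of -0.14 (SE 0.117). Ifi27l2a measured 145.8, 137.3 and 152.5 in KO, against 78.1, 201.3 and 160.4 in WT, a log2 change of 0.03 (SE 0.323). Its KO values differed by less than its WT values. Ifi35, Rtp4, Xaf1 and Trim30a each had their highest value in WT 2 and their lowest in WT 1.

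Between the library series, 24 minus 22 with genotype as a term, limma called 0 of the 40 genes, while 0.141% of all genes tested (1 higher and 20 lower) were called. At an unadjusted p under 0.05 the counts were 0 of the 40 and 1317 of all genes. The median change was 0.05 for the 40 and 0.06 for all genes. The largest changes among the 40 were those of Oas2 (0.42, adjusted p = 0.767 by limma), Mx1 (0.32), Oas1a (0.26), Isg20 (-0.23) and Samhd1 (0.22, adjusted p = 0.658 by limma). Samhd1 alone of the 40 had all series 24 values above all series 22 values, where 14.3% of all genes tested did.

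Among the genes upstream, Ifnb1, which encodes interferon beta, was listed at no more than 0.2 FPM in any library. Ifng, which encodes interferon gamma, measured 20.4, 3.8 and 3.5 in KO 1, KO 4 and KO 5, against 10.9, 14.3 and 5.2 in WT 1, WT 2 and WT 4. It was lower in each series 24 library than in any series 22 library, with a log2 difference of -1.76 (limma adjusted p = 0.0702). With genotype its log2 change was 0.11, which averages opposite signs: 0.69 within series 22 and -0.46 within series 24 (interaction, limma adjusted p = 0.678). The GTPases had series changes between -0.06 and 0.11. The receptor genes Ifnar1, Ifnar2, Ifngr1 and Ifngr2 had log2 changes with genotype of 0.08, 0.00 (SE 0.135), 0.09 and 0.13. The kinase genes Jak1, Jak2 and Tyk2 had changes of 0.06, 0.02 and 0.08, and Stat2, which encodes a partner of IRF9, had a change of 0.03.

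In all, 0 of the 12 tested ligand, receptor, kinase, STAT and feedback genes and 0 of 13 sensing and IRF genes were called by limma in either direction, with medians of 0.06 and 0.05 and no unadjusted p under 0.05. Irf5 and Myd88 had the smallest p of the second list, with log2 changes of 0.47 and 0.19. WT 2 held the highest value for 1 gene of the first list and 0 of the second, and WT 1 the lowest for 75% and 76.9% of them, beside 77.5% of the 40 genes.

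Another 38 interferon-induced genes outside the 40 gave 0 calls by limma in either direction, with 26 negative and 12 positive changes, a median of -0.04 and no unadjusted p under 0.05. Mndal (-0.13) and Psmb9 (0.19) had the smallest p. WT 2 held the highest value for 19 of the 38 (50%) and WT 1 the lowest for 31 (81.6%), and WT 2 was above WT 1 for 38 of 38. The list was chosen with earlier results of these data known.

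**Figure D5:**
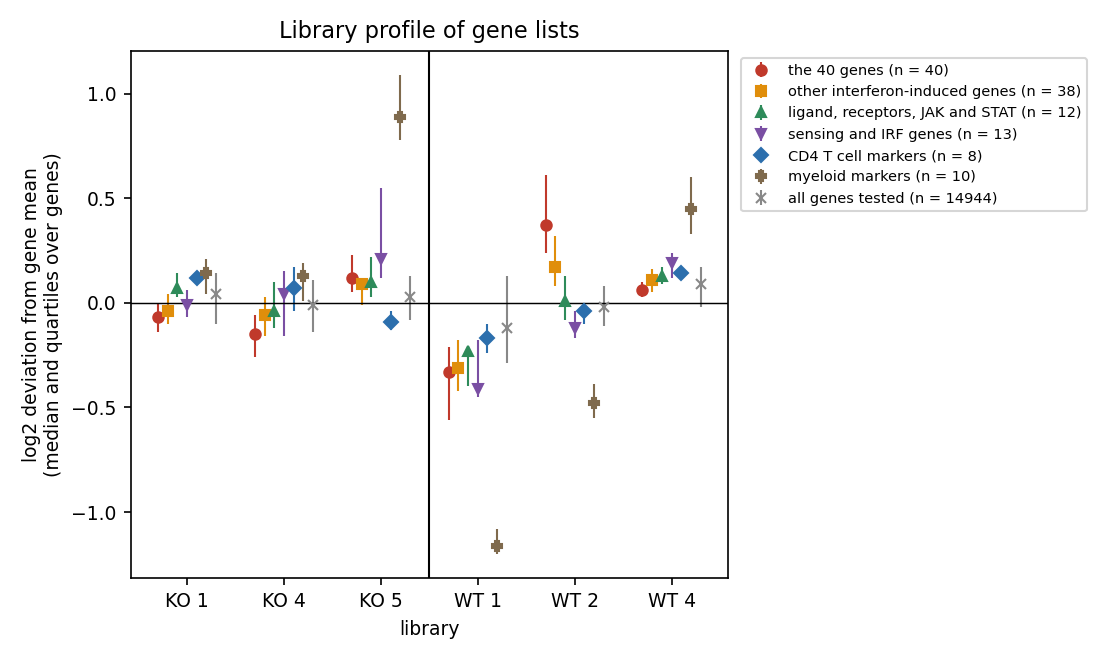
For each library the points give the median deviation, in log2 units, of a gene list from the genes' means over the 6 libraries, with quartiles over genes as bars. The 40 genes stand at 0.37 in WT 2 and -0.33 in WT 1, and myeloid markers are highest in KO 5.

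Other cell types in the samples were followed through their markers. The 10 myeloid markers, none of them at 0, summed to 710.1, 747.3 and 1534.2 in KO 1, KO 4 and KO 5, against 277.9, 433.4 and 1052.2 in WT 1, WT 2 and WT 4. WT 1 was lowest in both this sum and the 40 genes, KO 5 was above KO 4 for 10 of 10 myeloid markers and 37 of the 40 genes, and WT 2, highest for 35 of the 40 genes, was below each KO library in this sum. The median log2 difference between WT 2 and WT 1 was 0.66 over the myeloid markers and 0.66 over the 40 genes. The plasmacytoid dendritic cell marker Siglech measured 0.4, 0.6 and 1.0 in KO, against 0.9, 0.3 and 0.6 in WT. Another marker of that list, Ccr9, a homing receptor that T cells also carry, measured 50.8 in WT 2 and at most 34.4 in the other libraries. The 6 markers of the list, none at 0 in all libraries, summed to between 30.4 and 40.4 in KO and between 35.7 and 57.1 in WT. The 8 B cell markers summed to 25.2 to 32.2 in KO and 22.1 to 30.2 in WT, and the 8 CD8 T and NK cell markers to 110.9 to 138.7 in KO and 99.0 to 122.5 in WT. The 6 erythroid and platelet markers, of which Hba-a1 and Hbb-bs were at 0 in each library, summed to 5.6 to 9.2 in KO and 4.0 to 9.5 in WT, and the 6 stromal and endothelial markers to 271.6 to 285.0 in KO and 252.1 to 306.3 in WT. Pecam1, which T cells also express, made up most of the stromal and endothelial sum, and the other 5 markers of that list were each highest in WT 1. Col1a2 measured 0.8, 1.8 and 0.4 in KO 1, KO 4 and KO 5, against 5.5, 1.1 and 0.2 in WT 1, WT 2 and WT 4. Of the 7 B cell markers above the filter, 5 were highest in WT 1 too, and the other 2, Cd79b and H2-Eb1, were lowest there. WT 1 also had the highest background over the receptor genes, 0.301 FPM per kb of exon. What part this background has in the low marker values of WT 1 was not tested. H2-Eb1, at 6.3 FPM in WT 1 and 15.7 FPM in KO 5, was the largest part of the B cell sum in each library. What part other cells have in the values of the 40 genes was not tested, and fewer cells of a type cannot be told apart from less RNA per cell in these samples.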

How the data were processed

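Per the labels' protocols, RNA of CD4 T cells was depleted of ribosomal RNA and made into strand-specific TruSeq libraries. STAR, featureCounts, DESeq, DESeq2 and the build GRCm38.p3 are listed, without roles, in the submitters' processing notes. No source used here gives the strand setting of the counting, so overlapping antisense genes and close relatives (Ifit, Oas, Gbp and PYHIN genes) are uncertain. The authors deposited robust FPM rounded to 1 decimal, handled here as RPM. Depth is unknown, whole reads were not recovered, and no counting interval is given. Another 6 columns, which are not named rest, matched no sample and were not used. The 92 ERCC rows were left out of the tests, and they took 0.752% to 1.59% of a column's sum.

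Of the 54532 gene rows, 54409 matched a symbol by identifier. Genes with a mean of at least 1 were kept (14944). A linear model of log2(value + 0.5), which understates changes of low genes, with terms for genotype and library series was fitted with limma 3.58.1 (R 4.3.3, mean-variance trend, two-sided, Benjamini-Hochberg adjustment over all genes, threshold 0.05), after it had been tested on simulated data. The design text calls the libraries of a group biological replicates. Each p-value sets a change against the residual spread between libraries, which limma moderates with the spread of all genes. Exon lengths and gene coordinates are from GENCODE M21 (GRCm38). The 40 genes, the other lists and the rule for naming genes were chosen with earlier results of these data known. By that rule the text names 16 fixed genes, the 2 of smallest p in each role group, the 5 of largest series change, fixed pathway genes (one of which is not reported here) and Prmt5. One pathway symbol of the lists was not matched and is not analysed here. Alternatives changed the pseudocount, filter, series term, scaling, trend, pairing and set of libraries.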

Additional observations from a re-analysis of the deposited data

How the results depend on the processing

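Under 9 alternatives with all 6 libraries and 6 with 1 library left out, limma called 0 of the 40 genes between genotypes. Over all genes the count of genotype calls was 0 except with a replicate block, which gave 5 (1 higher and 4 lower). That block pairs KO 1 with WT 1 and KO 4 with WT 4, libraries that share a replicate number and a library series. Their deviations from the group means correlated at -0.16 and -0.409 over genes. WT 2 and KO 5 have no partner in the block, so they do not enter its changes. With a median of 0.03, the 40 genes had 23 positive changes under the block. Leaving out 1 library at a time, the median of the 40 genes ranged from -0.22 to 0.06, that of the series difference from -0.11 to 0.23, the count of the 40 without overlap between genotypes from 0 to 7, and genes called between series from 0 to 110. ERCC scaling left 2 of the 40 without overlap. Genes called between series numbered 54 with a mean of at least 5, 10 with ERCC scaling and 0 without a trend. The interaction gave 8 calls with ERCC scaling, 0 of them among the 40.

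Among genes whose change is printed, signs turned as follows, and the cause was not tested. Changes under the block leave out WT 2 and KO 5 by design. Of all 40 genes, 9 changes were positive as reported, against 23 with the block and 0 with ERCC scaling. Over all genes tested the positive shares were 54.4%, 52.4% and 7.75%. With the replicate block the printed genes that turned were Isg15 (0.17), Irf7 (0.04), Ifit1 (0.05), Mx1 (0.06), Oas2 (0.08), Usp18 (0.18), Igtp (0.08), Ddx58 (0.01), Ifnar2 (-0.00262) and Jak2 (-0.00164). Without the series term they were Oas2 (0.08) and Ifng (-0.47). With ERCC scaling they were Irf9 (-0.14), Irf1 (-0.15), Bst2 (-0.10), Ifi27l2a (-0.18), Oas1a (-0.04), Samhd1 (-0.17), Ifng (-0.08), Ifnar1 (-0.14), Ifnar2 (-0.21), Ifngr1 (-0.12), Ifngr2 (-0.09), Jak1 (-0.16), Jak2 (-0.19), Tyk2 (-0.14), Stat2 (-0.19), Myd88 (-0.03), Psmb9 (-0.02) and Dhx58 (-0.14). The series difference of Ifng passed at a mean of at least 5 (-1.76, limma adjusted p = 0.0186).

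With 1 library left out, changes that turned ranged as follows: Isg15 -0.41 to 0.18, Irf7 -0.28 to 0.13, Irf9 -0.04 to 0.21, Irf1 -0.07 to 0.20, Ifit1 -0.56 to 0.09, Ifit3 -0.56 to 0.06, Mx1 -0.50 to 0.24, Oas2 -0.32 to 0.26, Usp18 -0.36 to 0.21, Bst2 -0.11 to 0.33, Gbp2 -0.12 to 0.01, Igtp -0.22 to 0.04, Ifi27l2a -0.28 to 0.30, Zbp1 -0.26 to 0.02, Dtx3l -0.17 to 0.00118, Parp14 -0.18 to 0.04, Oas1a -0.05 to 0.37, Isg20 -0.43 to 0.02, Samhd1 -0.02 to 0.11, Ifng -0.46 to 0.69, Ifnar1 -0.10 to 0.25, Ifnar2 -0.19 to 0.19, Ifngr1 -0.06 to 0.25, Jak1 -0.11 to 0.23, Jak2 -0.15 to 0.20, Tyk2 -0.08 to 0.25, Stat2 -0.09 to 0.16, Irf5 -0.05 to 0.99, Ddx58 -0.14 to 0.03, Dhx58 -0.16 to 0.31. For the series difference, Mx1 -0.06 to 0.68. The depth is unknown, so that no limit from counting can be given, and 3 libraries per group limit every interval.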

Other observations

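The spread of the 40 genes between WT 2 and WT 1 was set beside their promoter letters. The median log2 difference was 0.62 for the 17 genes with an ISRE match, 0.64 for the 12 with a window and no match, and 1.08 for the 11 without a window. Ranges were 0.26 to 1.52, 0.19 to 1.06 and 0.37 to 1.72, so that the lists overlapped.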
